A study of Mus musculus with 24 samples.

Results

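The 9 genes described here encode subunits of the BAF chromatin-remodelling complex: Smarcc1, Smarcc2, Smarca4, Smarcb1, Smarcd1, Smarce1, Arid1a, Actl6a and Brd9. They are 9 of the 48985 gene identifiers in the count table, and each was found by matching its Ensembl identifier to the symbol in GENCODE M21. Smarcc1 was chosen by its measured 129S1 and CAST counts, which were skewed in the d6 and i10 lines, so that skew is given below as a description, with no test. All 9 passed the filters for total counts (16253 genes) and for the ratio of the alleles (10795 genes).

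BAF complexes are ATP-dependent machines of the SWI/SNF family that slide or evict nucleosomes at promoters and enhancers. In the canonical and PBAF forms, a scaffold of Smarcc proteins with Smarcb1, Smarcd and Smarce1 is joined by a catalytic ATPase module and by subunits that define each form. A non-canonical form contains Brd9. Mouse embryonic stem cells carry a form known as esBAF, which is rich in Smarcc1 and contains little Smarcc2, and which is needed for self-renewal and pluripotency.

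Poly(A) RNA was sequenced from F121/9, a female mouse embryonic stem cell line from a cross of CAST/EiJ and 129/Sv, and from lines derived from it. Reads were counted separately for the 129S1 and CAST copies of each gene, which allows the alleles of one nucleus to be compared. The series set recombined clones against their parental lines to ask how expression changed on recombination. All cells were grown without serum, with leukaemia inhibitory factor and inhibitors of MEK and GSK-3β, and no group received a further treatment.

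There were 12 groups of 2 replicates. For each of 5 recombinations, named d3, d6, i7, i12 and i10, a parental line (genotype "control") was sequenced. Beside it stood its recombined lines, which were i10 clone 18, i12 clone 10, i7 clones 7 and 12, d6 clone 16 and, for d3, clones 12 and 21. A parental line and its clones are called a family here. Each recombined group is 1 clone, so what is particular to that clone and what the recombination brought cannot be told apart. The labels call the replicates biological duplicates and say no more about them, so p-values measure the spread between such samples. What each recombination joined or removed was not given in the sources used here.

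Total counts were 3286819 to 15581094 per library, lowest in i10, and the 129S1 allele held 47.9% to 49.1% of counts outside the mitochondria. This share was lowest in d3 clone 21 (47.9% and 48.1%) and i7 clone 12 (47.9% in both libraries). The stem cell label was checked against 8 markers (Pou5f1, Sox2, Nanog, Zfp42, Esrrb, Klf4, Tfcp2l1 and Tbx3), all detected in every library, with a summed level of 6046 to 8540 CPM, the library-size-scaled count used for all levels here. The summed level of 5 primitive endoderm markers was 0.926 to 8.67 CPM and that of 4 neurectoderm markers 64.8 to 141.4 CPM, mainly Nes and Tubb3. Foxa2, Mesp1 and Col3a1 were at 0 in 22 libraries each. The summed level of 4 mesoderm markers was 4.23 to 13.1 CPM in d6 and i10 and 7.97 to 48.7 CPM in the other libraries. That of 4 fibroblast markers was 3.93 to 11.4 CPM against 7.54 to 25.7 CPM. The mesoderm sum was mainly T and the fibroblast sum mainly Thy1. Both sums were lower in d6 and i10 with overlapping ranges, and their part in the results was not tested.

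The scaffold subunits come first. Smarcc1 (BAF155, ENSMUSG00000032481.17) lies on chromosome 9 at chr9:110117708-110240178 on the plus strand of GRCm38, and its paralog Smarcc2 (BAF170, ENSMUSG00000025369.15) at chr10:128459248-128490482, also on the plus strand. The annotated start of Smarcc1 overlaps that of Dhx30, which runs the opposite way on the other strand. Actl6a overlaps Mrpl47 on the other strand too, as Smarcd1 does Gm17349, Gm17241 and Gm34939, and Brd9 does Gm41002. Whether the counting used strand was not given in the sources used here. The promoters of this pair are shown because Smarcc1 was the member whose allelic skew set d6 and i10 apart, and Smarcc2 is its nearest relative. They run from 250 bases before to 50 bases after the RefSeq start, on GRCm38.p6 at chr9:110131774-110132073 and chr10:128458986-128459285, read 5′ to 3′. The RefSeq start of Smarcc1 lies inside the GENCODE gene, downstream of its annotated start. The letters are the mouse reference genome, not the 129S1 or CAST sequence, and capitals mark GCATGCG or its reverse complement CGCATGC, a stretch of the site bound by NRF1.
Smarcc1: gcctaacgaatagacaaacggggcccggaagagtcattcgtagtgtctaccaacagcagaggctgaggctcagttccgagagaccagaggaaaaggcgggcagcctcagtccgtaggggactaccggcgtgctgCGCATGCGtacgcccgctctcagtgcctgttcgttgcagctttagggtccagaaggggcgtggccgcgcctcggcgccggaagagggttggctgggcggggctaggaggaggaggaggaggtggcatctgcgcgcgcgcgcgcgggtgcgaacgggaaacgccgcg
Smarcc2: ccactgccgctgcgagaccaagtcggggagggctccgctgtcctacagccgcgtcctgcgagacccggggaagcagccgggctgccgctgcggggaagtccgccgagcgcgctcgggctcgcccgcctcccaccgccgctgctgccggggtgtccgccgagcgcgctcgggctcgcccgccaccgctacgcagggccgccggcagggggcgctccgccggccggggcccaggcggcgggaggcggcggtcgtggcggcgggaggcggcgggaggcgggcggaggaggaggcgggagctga
The Smarcc1 promoter held both words as overlapping matches on the 2 strands, and Smarcc2 held neither. Of 32851 promoters of the same length, 1177 held the motif (3.58%), and among the members Smarca4 and Smarcb1 held it as well. The table had a promoter for 8 of the 9 members, all but Smarce1. GC content was 66.0% with 33 CpG dinucleotides in the Smarcc1 promoter and 81.0% with 48 in the Smarcc2 promoter.

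Smarcc1 counts came about equally from both alleles in the d3, i7 and i12 families and mostly from CAST in the d6 and i10 families. The 129S1 share of its counts, that is 129S1 counts over the sum of both alleles, was 43.5% to 47.9% (median 45.7%) in the 16 libraries of d3, i7 and i12. In the 8 libraries of d6 and i10 it was 11.8% to 15.3% (median 14.2%). No library of one set reached the range of the other, and the gap between the sets was wider than the range within either.

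The skew was present in the parental lines and in the recombined clones alike. In the d6 parental line the 129S1 share was 13.3% (334 of 2512 counts, 95% Wilson interval 12.0% to 14.7%) and 15.3% (195 of 1275, 13.4% to 17.4%). In d6 clone 16 it was 11.8% (398 of 3363, 10.8% to 13.0%) and 15.2% (301 of 1981, 13.7% to 16.8%). All 4 libraries of d6 lay far below an even split, and the parental and clone values interleaved. For the i10 parental line, the share was 13.1% (160 of 1223, 11.3% to 15.1%) and 14.9% (82 of 551, 12.2% to 18.1%). For i10 clone 18 it was 14.6% (129 of 886, 12.4% to 17.0%) and 13.8% (128 of 925, 11.8% to 16.2%). The i10 values lay within the range of those of d6. Such intervals cover counting error only.

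In the remaining families the 129S1 share of Smarcc1 stayed a little under an even split. The d3 parental line had 45.2% and 46.7%, d3 clone 12 had 45.4% and 44.8%, and d3 clone 21 had 46.6% and 44.7%. The i7 parental line had 46.3% and 45.6%, i7 clone 7 had 47.9% and 47.3%, and i7 clone 12 had 46.1% and 46.9%. The i12 parental line had 43.5% and 44.5%, and i12 clone 10 had 45.8% and 44.1%. These 16 values differed by a few percentage points, and the 3 lowest were from i12.

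The skew was a shortfall of 129S1 counts and not an excess of CAST counts. The 129S1 level of Smarcc1 was 30.1 ± 3.55 CPM (SD, n = 8) in d6 and i10 and 158.8 ± 20.2 CPM (SD, n = 16) in the other libraries, 5.28-fold lower. Its CAST level was 186.2 ± 29.5 CPM (SD, n = 8) against 188.5 ± 23.9 CPM (SD, n = 16), which is 98.8% of the others. By library, the 129S1 level was 24.8 to 34.8 CPM against 104.8 to 182.3 CPM, with no overlap, and the CAST level was 141.7 to 226.6 CPM against 130.6 to 220.7 CPM, overlapping over nearly all of its range. In bulk RNA, fewer cells using an allele and less RNA from it per cell cannot be told apart.

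**Figure D1:**
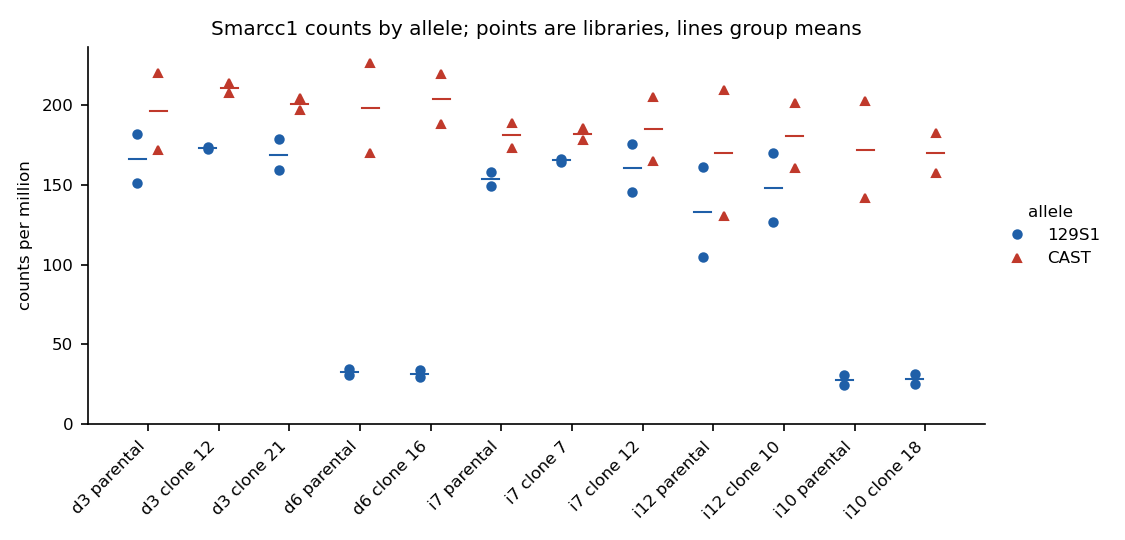
Smarcc1 level in CPM from the 129S1 allele (blue circles) and the CAST allele (red triangles) in each group; each point is a library and each short line the mean of its 2 replicates. The 129S1 points of d6 and i10 lie between 24.8 and 34.8 and those of the other groups between 104.8 and 182.3, while the CAST points of all groups overlap.

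The order of the groups by 129S1 level was i10 parental line (27.6 ± 4.06 CPM), i10 clone 18 (28.2 ± 4.18), d6 clone 16 (31.6 ± 2.98) and d6 parental line (32.7 ± 2.85; SD, n = 2 each). These 4 groups overlapped, apart from the i10 and d6 parental lines (24.8 to 30.5 and 30.7 to 34.8 CPM). After a wide step came the i12 parental line (133.0 ± 39.8), i12 clone 10 (148.4 ± 30.8), the i7 parental line (154.0 ± 6.35), i7 clone 12 (160.8 ± 21.2) and i7 clone 7 (165.5 ± 1.40). The d3 parental line (166.7 ± 22.1), d3 clone 21 (169.1 ± 13.8) and d3 clone 12 (173.0 ± 0.882) were highest. Within this upper set each neighbour in the order differed from the next by less than the larger of their SDs. By CAST level the groups ran from the i12 parental line (170.0 ± 55.8) to d3 clone 12 (210.9 ± 4.80), and d6 clone 16 (203.8 ± 22.3) was second highest.

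With both alleles added, Smarcc1 stood at 216.2 ± 32.2 CPM (SD, n = 8) in d6 and i10 and at 347.3 ± 43.4 CPM (SD, n = 16) elsewhere, or 62.3% of the others. The summed ranges, 166.5 to 261.4 CPM and 235.4 to 403.0 CPM, overlapped through a single library, i12 parental replicate 2 at 235.4 CPM, which lay below replicate 1 of both d6 groups. Among the parental lines alone, d6 and i10 against the mean of d3, i7 and i12 gave a log2 difference of -2.34 (SE 0.0856) in the 129S1 to CAST ratio and -0.63 (SE 0.146) in summed counts. This contrast was added after the data were seen, and for Smarcc1 it restates the values that chose the gene.

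Few genes separated the families in this way. Of 10795 genes tested for the ratio, 5 (0.0463%) had a lower 129S1 share in every d6 and i10 library than in every other library, and 0 (0.0%) had a higher one. Smarcc1 is one of the 5 by the way it was chosen. Its mean log2 ratio in d6 and i10 minus that in the other libraries was -2.37, where the 1st and 99th percentiles over all genes were -0.56 and 0.93. None of the other 8 members was among the 5.

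The neighbours of Smarcc1 on chromosome 9 did not share its pattern. Of 17 tested genes starting within 1 Mb of its start, 0 had a 129S1 share without overlap between the sets of libraries. Their log2 ratio in d6 and i10 minus that in the other libraries was -0.36 to 0.06, with a median of -0.04. Dhx30, the helicase gene whose start overlaps that of Smarcc1, had a difference of 0.0011. Elp6, a subunit of Elongator and the nearest tested gene on the other side, had 0.050. The lowest neighbour was Ptpn23, a phosphatase-like protein of endosomal sorting, at -0.36, where the 129S1 share was 31.5% to 45.5% in d6 and i10 and 40.5% to 56.7% elsewhere. The difference of Smarcc1 was therefore not seen at the same size in any tested gene on either side.

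**Figure D2:**
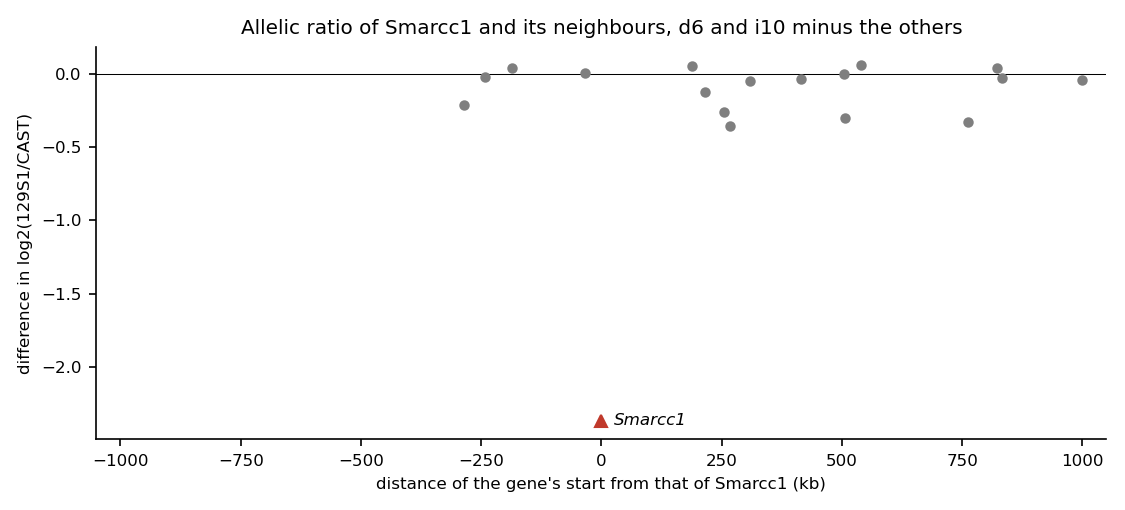
Difference in mean log2(129S1/CAST) between the d6 and i10 libraries and the other libraries (vertical axis) against distance of a gene's start from that of Smarcc1 in kb (horizontal axis), for Smarcc1 (red triangle) and 17 neighbours (grey points). Smarcc1 lies at -2.37 and the neighbours lie between -0.36 and 0.06.

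Of the 5 genes whose log2 ratio was most like that of Smarcc1 over the 24 libraries, 4 are reported: Tatdn2 on chromosome 6 (Pearson r 0.922), Epb41l3 on chromosome 17 (0.915), Gfm1 on chromosome 3 (0.809) and Fbxw9 on chromosome 8 (0.807). The points share libraries and fall into the families, so the r describes the split and carries no p. Tatdn2, Epb41l3 and Gfm1 had no overlap between the sets, and Fbxw9 did. Ranked by Spearman's rho, or without the d6 and i10 libraries, 0 of these 4 were among the 5 genes most like Smarcc1.

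These genes differed in which allele carried the change. Gfm1, a mitochondrial elongation factor, had a 129S1 level of 28.9 ± 11.9 CPM in d6 and i10 against 61.0 ± 6.14 CPM elsewhere, with CAST at 64.0 ± 3.56 and 66.8 ± 4.51 CPM (SD, n = 8 and 16 throughout). In Gfm1, as in Smarcc1, the 129S1 level was the lower one and the CAST levels overlapped. Epb41l3, a cytoskeletal adaptor, had 129S1 levels of 3.30 ± 0.798 and 2.77 ± 0.646 CPM, while its CAST level was 18.6 ± 3.84 against 4.44 ± 1.89 CPM. In Epb41l3 the lower share thus came with more CAST counts. Within d6 and i10 the 129S1 share of Smarcc1 spanned 11.8% to 15.3%, whereas that of Gfm1 spanned 18.4% to 39.7%. The Gfm1 spread followed replicate number, with 32.8% to 39.7% in replicate 1 and 18.4% to 27.0% in replicate 2 of these groups. Tatdn2 ran the other way, with 18.4% to 27.4% in replicate 1 and 30.1% to 41.1% in replicate 2.

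**Figure D3:**
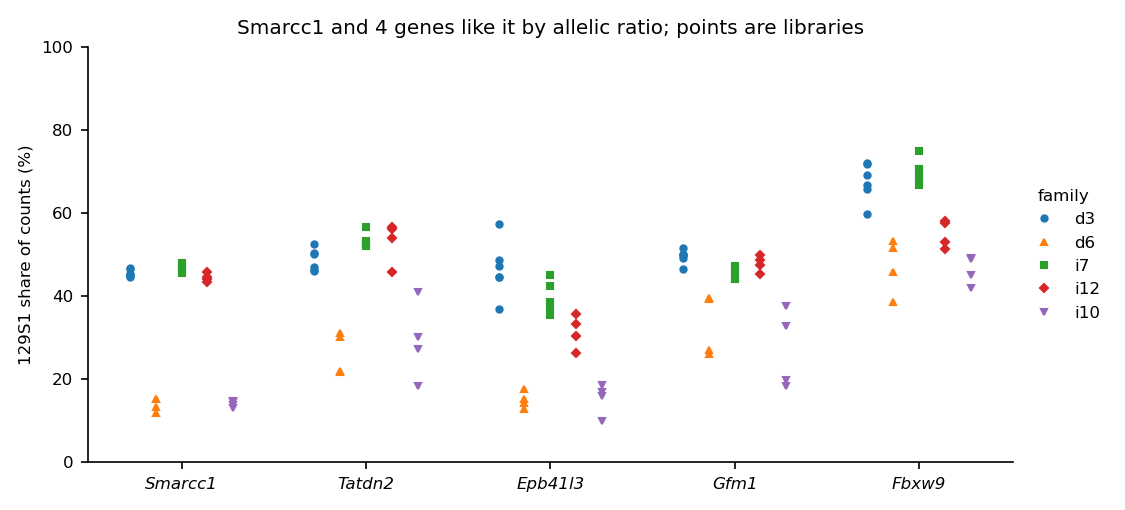
129S1 share of counts in percent (vertical axis) for Smarcc1 and 4 of the genes with the highest Pearson r to its log2 ratio; each point is a library, coloured by family. The d6 and i10 points lie below all others for Smarcc1, Tatdn2, Epb41l3 and Gfm1, and overlap the others for Fbxw9.

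Smarcc2, which can replace Smarcc1 in the scaffold, overlapped between the families with low and balanced Smarcc1, and no difference passed between their parental lines. Its summed level was 17.4 to 22.5 CPM (median 19.7) in d6 and i10 and 15.6 to 23.1 CPM (median 18.3) in the other libraries, and the ranges overlapped. Parental d6 and i10 against the other parental lines gave a log2 difference of 0.07 (SE 0.119, edgeR adjusted p = 0.947). Its 129S1 share was 59.3% to 68.8% (median 62.7%) against 53.0% to 74.2% (median 63.1%), with a log2 ratio difference of 0.21 (SE 0.208, edgeR adjusted p = 0.919). The counts behind each Smarcc2 share were few, 64 to 285 per library, so a moderate shift could have been missed at this depth.

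The catalytic and core subunits also kept overlapping ranges. Smarca4 (BRG1, chr9:21616169-21704230), the ATPase of esBAF, had 141.7 to 182.0 CPM in d6 and i10 and 133.4 to 205.9 CPM elsewhere, and 129S1 shares of 46.5% to 53.9% and 47.7% to 53.1%. It lies on the same chromosome as Smarcc1, but its alleles stayed near an even split in every library. Smarcb1 (BAF47, chr10:75896769-75921617), a core subunit that contacts the nucleosome, had 65.2 to 85.3 CPM against 60.2 to 98.1 CPM, and 129S1 shares of 46.3% to 52.1% against 42.9% to 53.1%. Smarcd1 (BAF60A, chr15:99702129-99713991), a core subunit that links to transcription factors, had 95.8 to 129.9 CPM against 89.3 to 131.8 CPM, and shares of 46.6% to 54.6% against 44.9% to 51.5%. In each of these 3 genes both alleles contributed about equally.

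Smarce1 (BAF57, chr11:99209047-99231017), a core subunit with an HMG domain, had 172.5 to 225.9 CPM in d6 and i10 and 170.3 to 283.1 CPM elsewhere. Its 129S1 share was 34.7% to 40.8% and 32.7% to 41.2%, below an even split in all 24 libraries. Actl6a (BAF53A, chr3:32706298-32726973), the actin-related protein of the ATPase module in dividing cells, had 274.5 to 402.5 CPM against 251.4 to 402.0 CPM. Its 129S1 share was 55.7% to 63.0% and 49.6% to 66.0%, mostly on the opposite side. Smarce1 and Actl6a were thus skewed in opposite directions. By family, the Actl6a share was 61.6% to 66.0% in d3, 61.2% to 63.0% in d6 and 58.3% to 60.9% in i7. It was 55.7% to 60.9% in i10 and 49.6% to 60.6% in i12, where parental replicate 2 had the lowest.

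Among the subunits that define a form of the complex, Arid1a (BAF250A, chr4:133679008-133756769), the large subunit of canonical BAF, had 50.5 to 68.1 CPM in d6 and i10 and 33.4 to 89.4 CPM elsewhere. Its replicates differed widely, with 87.7 and 41.4 CPM in the d3 parental line and 61.9 and 33.4 CPM in the i12 parental line. Brd9 (chr13:73937811-73960895), the bromodomain subunit of the non-canonical form, had 27.7 to 37.2 CPM against 24.7 to 42.7 CPM. Brd9 had 129S1 shares of 43.3% to 58.5% and 50.8% to 57.4%. Arid1a shares were 43.5% to 51.5% and 40.8% to 50.3%, so both genes overlapped between the sets. CPM values are not scaled for gene length, so these levels compare libraries and not genes.

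**Figure D4:**
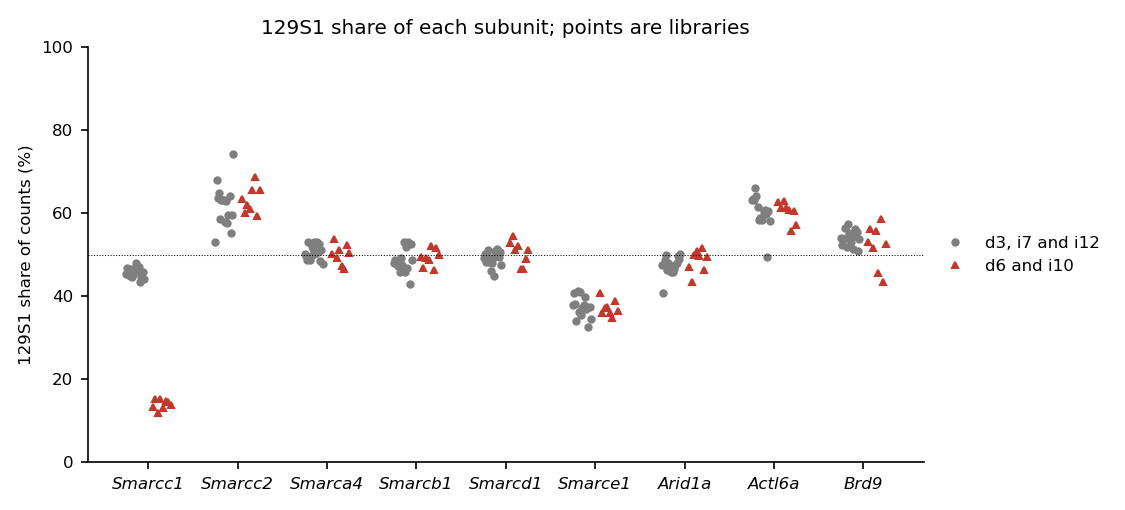
129S1 share of counts in percent (vertical axis) for the 9 subunits, with each point a library; grey circles are the 16 libraries of d3, i7 and i12, red triangles the 8 libraries of d6 and i10, and the dotted line marks an even split. Smarcc1 is separated between the sets (11.8% to 15.3% against 43.5% to 47.9%) and the other 8 subunits overlap.

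None of the 8 members other than Smarcc1 passed when parental d6 and i10 were set against the other parental lines. In summed counts 0 of 8 passed, where 80 of 16253 genes (0.492%) did, and their log2 differences ran from -0.12 (Smarce1, SE 0.124, edgeR adjusted p = 0.878) to 0.07 (Actl6a, SE 0.139, edgeR adjusted p = 0.952). In the allelic ratio 0 of 8 passed, where 24 of 10795 genes (0.222%) did, with log2 differences from -0.12 (Brd9, SE 0.138) to 0.21 (Smarcc2). At an unadjusted p under 0.05 there were 0 of 8 in either measure, and DESeq2 called 0. At such backgrounds a list of 8 would seldom hold a called gene, and a p that misses the threshold does not show equal levels.

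Among the 5 parental lines taken jointly, 0 of these 8 members passed in summed counts against a background of 6.64% of genes, and 0 of 8 passed in the allelic ratio against 1.29%. At an unadjusted p under 0.05 stood Smarca4 in summed counts and Actl6a and Smarcd1 in the ratio. Smarca4 came closest in summed counts (edgeR adjusted p = 0.128), with parental means from 138.3 ± 7.00 CPM in i12 to 195.8 ± 14.2 CPM in i7 (SD, n = 2). Smarcd1 came closest in the ratio (edgeR adjusted p = 0.223), with parental 129S1 shares of 46.1% in replicate 1 of i7, 46.6% in both i10 libraries, and 52.7% and 54.6% in d6. When replicate number entered the fit as a block, each family had its own replicate term. The parental lines were then compared at the level of replicate 1 and not at the mean of their replicates. In that fit Actl6a (edgeR adjusted p = 0.00738) and Smarca4 (0.0431) passed in summed counts, as did 6868 of all 16253 genes. In Actl6a replicate 1 was higher than replicate 2 in 11 of 12 groups, and in Smarca4 in 8 of 12.

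The 129S1 and CAST alleles of 5 of these 8 members differed in the mean of the parental lines. Smarcc2 (log2 ratio 0.73, SE 0.0994, edgeR adjusted p = 1.66e-06), Actl6a (0.55, SE 0.0473, 1.58e-09) and Brd9 (0.24, SE 0.0668, 0.00306) had more 129S1 counts. Smarce1 (-0.75, SE 0.0478, 1.33e-11) and Arid1a (-0.17, SE 0.0452, 0.00247) had more CAST counts. Smarca4 (0.01), Smarcb1 (-0.08) and Smarcd1 (-0.04) did not pass. Of all genes tested, 69.2% passed, so 5 of 8 is near the background. A bias of alignment towards a genome and a difference in expression cannot be told apart in this comparison. The call for Brd9 was lost with the replicate term (log2 ratio 0.15, edgeR adjusted p = 0.0769). With that term the parental lines were taken at the level of replicate 1 and not at the mean of their replicates.

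No member passed the threshold between a recombined clone and its parental line, with 2 replicates a group. In summed counts, 0 of 9 passed in each of the 7 comparisons of a clone with its parental line. The share of all genes that passed was 0.0% for i10 clone 18, i12 clone 10 and i7 clone 7, 0.0246% for i7 clone 12, 0.0123% each for d6 clone 16 and d3 clone 12, and 0.0554% for d3 clone 21. In the allelic ratio, where Smarcc1 was not tested in d6 and i10, 0 of 8 passed in d6 clone 16 and i10 clone 18 and 0 of 9 in each of the other clones. The share of all genes was 0.0% for i10 clone 18, 0.00926% each for i12 clone 10 and i7 clone 7, 2.33% for i7 clone 12, 0.0463% each for d6 clone 16 and d3 clone 12, and 3.41% for d3 clone 21. A joint test of whether the 7 clone effects on the ratio differed from each other, added after the data were seen, was passed by 0 of the 8 members other than Smarcc1 and by 5.01% of genes. With so few genes passing in most clones, a count of 0 is close to the background. Without adjustment, 3 member values had a p under 0.05, all in the ratio: Arid1a in d3 clone 12 (log2 change 0.27, edgeR adjusted p = 1.00) and in d6 clone 16 (0.28, adjusted p = 1.00), and Smarcd1 in i7 clone 12 (0.23, adjusted p = 0.735). In summed counts there were 0 such values, and DESeq2 called 0 members in any clone.

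For Smarcc1 the clone changes in summed counts were all small. The log2 change was -0.01 for i10 clone 18, 0.12 for i12 clone 10, 0.05 for both i7 clones, 0.03 for d6 clone 16, 0.03 for d3 clone 21 and 0.08 for d3 clone 12. Its allelic ratio had a log2 change of 0.06 for i12 clone 10, 0.03 for i7 clone 12, 0.10 for i7 clone 7, -0.02 for d3 clone 21 and -0.05 for d3 clone 12. In the skewed families, where the ratio is given with no test, the clone differed from its parental line by -0.10 in d6 and 0.04 in i10. The skew was thus neither gained nor lost between a parental line and its clone. Over all 9 members, clone changes in summed counts ran from -0.27 to 0.38, the highest being Arid1a in d3 clone 12.

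**Figure D5:**
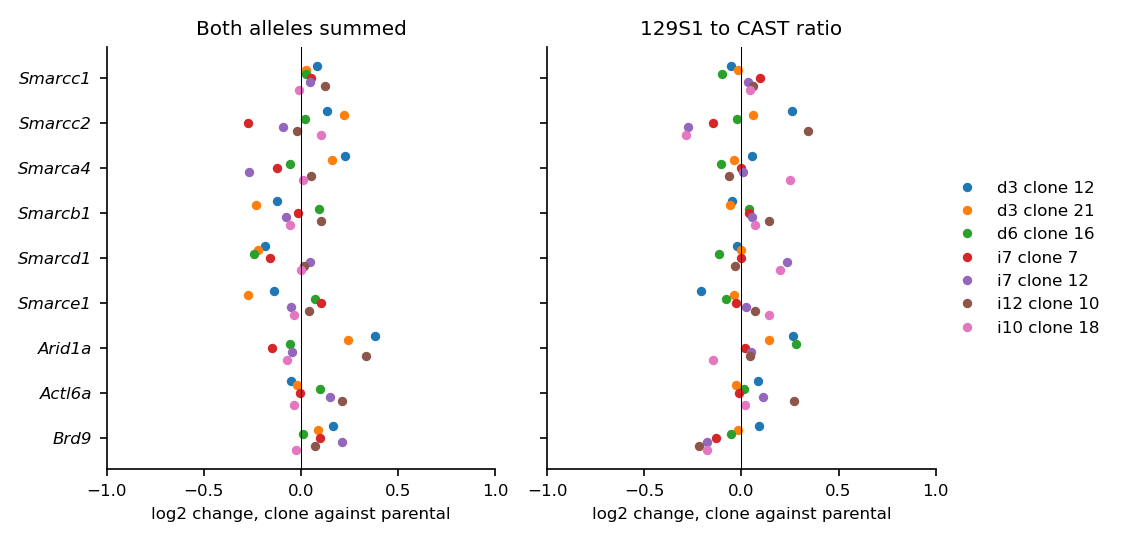
Log2 change of each recombined clone against its parental line (horizontal axes) for the 9 subunits, in summed counts (left) and in the ratio of 129S1 to CAST counts (right); each point is a clone, coloured as in the key. All points lie between -0.28 and 0.38, and none of those tested passed the threshold.

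Spread over the 24 libraries differed among the members. The coefficient of variation of the summed CPM was 24.5% for Smarcc1 and 23.0% for Arid1a, and 11.4% to 15.9% for the other 7 members. The median over 16253 tested genes was 29.2%. In Smarcc1 the extremes were i10 parental replicate 2 (166.5 CPM) and d3 parental replicate 1 (403.0 CPM). In Arid1a they were i12 parental replicate 2 (33.4 CPM) and d3 clone 12 replicate 2 (89.4 CPM), and its spread therefore did not follow the d6 and i10 split.

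The other subunits of the SWI/SNF complexes were read as a list of 22 genes. Of these 18 passed the filter for summed counts and 17 that for the ratio. Dpf3, Actl6b, Bcl11a and Bcl11b, known from neurons, heart or lymphocytes, were too low to test. In summed counts 0 of 18 passed in any clone, with 3 values at an unadjusted p under 0.05 over the 7 clones, and DESeq2 called 0. In the ratio 2 of 17 passed, Pbrm1 in d3 clone 21 and Dpf2 in i7 clone 12, and no other gene of the list passed in any clone. All genes passed at 3.41% and 2.33% in these clones, most of them downwards (354 of 368 and 239 of 252), so 1 of 17 in each is near the background.

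Pbrm1 (BAF180, chr14:31019138-31121592), the polybromo subunit of PBAF, lost its 129S1 excess in d3 clone 21. Its 129S1 share was 39.0% and 40.9% there, 67.4% and 77.5% in the d3 parental line, and 62.4% to 77.5% (median 68.6%) in the 22 libraries outside this clone. The log2 ratio fell by 1.97 (SE 0.182, edgeR adjusted p = 4.85e-08). The 129S1 level was 41.0 ± 3.97 CPM against 67.1 ± 0.873 CPM in the parental line, and the CAST level 61.5 ± 2.65 against 26.0 ± 9.47 CPM (SD, n = 2 each). The lower 129S1 and higher CAST levels left a sum with a log2 change of 0.14 (SE 0.170, edgeR adjusted p = 1.00). In d3 clone 12 the log2 ratio change was -0.49 (edgeR adjusted p = 0.900). Pbrm1 overlaps Gnl3 and Smim4 on the other strand.

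Dpf2 (BAF45D, chr19:5896516-5913010), a PHD-finger subunit of canonical BAF, shifted towards CAST in i7 clone 12. Its 129S1 share was 26.5% and 28.8% there, 44.3% and 39.3% in the i7 parental line, and 30.2% to 45.1% (median 38.7%) in the other 22 libraries. The log2 ratio fell by 0.90 (SE 0.170, edgeR adjusted p = 0.00303). Its CAST level was 85.7 ± 7.29 CPM against 46.3 ± 1.21 CPM in the parental line, while its 129S1 level was 32.7 ± 0.101 against 33.5 ± 5.75 CPM (SD, n = 2 each). The sum had a log2 change of 0.57 (SE 0.159), which did not pass (edgeR adjusted p = 0.339). The call was lost without i7 clone 12 replicate 1 (-0.82, adjusted p = 0.0563) and without i7 parental replicate 1 (-0.76, adjusted p = 0.0843). In i7 clone 7 the log2 ratio change was -0.12 (edgeR adjusted p = 1.00).

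Smarca2 (BRM, chr19:26605050-26778322), the alternative ATPase, was low in all libraries, at 1.68 to 10.5 CPM in the 22 libraries outside i7 clone 12, and had too few 129S1 counts (a mean of 7.88 per library) for the ratio test. In i7 clone 12 its sum was 4.54 ± 0.420 CPM against 1.96 ± 0.391 CPM in the parental line (SD, n = 2 each), a log2 change of 1.22 (SE 0.401) that did not pass (edgeR adjusted p = 0.471). Smarca2 and Actb (edgeR adjusted p = 0.0385 and 0.0182) were the 2 genes of the list that passed among the parental lines in summed counts, 2 of 18 against 6.64% of all genes. Actb has near-identical copies in the genome, so its counts are uncertain. Its counts were nearly all CAST, with a mean of 4002 per library against 31.4 from 129S1. Its replicates differed widely in some groups, with 605.9 ± 413.0 CPM in the d3 and 696.6 ± 560.1 CPM in the i7 parental line (SD, n = 2 each). In the mean of the parental lines, 13 of 17 genes of the list had unequal alleles, 7 towards 129S1 and 6 towards CAST, against 69.2% of all genes.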

How the data were processed

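RNA-seq of 24 libraries in 12 groups of 2 was analysed from the table of raw counts deposited by the authors, 1 whole-number count per gene, library and allele. STAR, SAMtools and mm10 are named in the submitters' processing notes. How reads were counted, with which annotation, and what was done with those covering no variant is not given in the sources used here. Of 48985 identifiers, 48838 matched GENCODE M21 without the version number, and the 147 others held 0.0148% of counts.

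The members and lists were chosen with earlier results of these data known. Allele counts were added per gene and tested with edgeR 4.0.16 in R 4.3.3 (TMM, filterByExpr, quasi-likelihood test, 12 group coefficients, all 24 libraries). Allelic ratios were tested where each allele averaged 10 or more counts, in a fit of both columns of every library that had 1 term per library and 1 allele term per group. Both fits left 12 residual degrees of freedom. A gene passed at a Benjamini-Hochberg adjusted p under 0.05 over all genes tested. CPM used effective library sizes, and log2 ratios per library added 1 to each allele. The scripts were tested on simulated data. Total counts of 3286819 to 15581094 limit the precision, shown as 95% Wilson intervals. The 3 pairs of libraries most alike had the same replicate number in different groups, and the closest, i7 parental replicate 1 and i7 clone 7 replicate 1, still differed beyond counting noise (chi-square over degrees of freedom 2.53). Replicates of a group differed more, with 9.77 to 54.8.

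All members were named, with genes of the wider list called in a clone or lying on chromosomes 14 or 19, the 5 genes most like Smarcc1 by Pearson r (1 of which is not reported here), and tested genes within 1 Mb of it, of which the nearest and the lowest are given. Actb was chosen after its values were seen. Alternatives covered DESeq2 1.42.0 size factors and test, filters, each allele alone, only the compared libraries, a replicate term, and each library left out. Promoters were from RefSeq.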

Additional observations from a re-analysis of the deposited data

Results flagged for a closer look

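The 7 clone effects on the allelic ratio differed from each other for 2 genes of the wider subunit list, by a joint edgeR test of any difference that was added after the data were seen and that 5.01% of 10795 genes passed. Pbrm1 had an adjusted p of 1.61e-05, with a log2 change of -1.97 in d3 clone 21 and changes that did not pass in the other 6 clones. Dpf2 had an adjusted p of 0.0176, with a log2 change of -0.90 in i7 clone 12. None of the 8 members other than Smarcc1 passed this test (lowest adjusted p = 1.00).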

How the results depend on the processing

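Counts of genes called are given over all genes tested, in total counts for i7 clone 12, d6 clone 16, d3 clone 21 and d3 clone 12, where they were 4, 2, 9 and 2. They were 123, 32, 15 and 25 with no filter on low counts, 220, 0, 2 and 0 with only the libraries of the comparison, 0, 0, 361 and 0 with 129S1 counts alone, and 59, 5, 79 and 6 with CAST counts alone. i7 clone 12 had 75 with the DESeq2 test. Against 0 genes each, i10 clone 18 had 6 and i12 clone 10 had 4 without the filter, and i12 clone 10 had 1 with 129S1 alone. At an unadjusted p under 0.05 edgeR gave 128, 213 and 48 genes in i10 clone 18, i12 clone 10 and i7 clone 7, and DESeq2 called 0, 0 and 0. Among the parental lines 1079 genes became 3630 without the filter, 710 with 129S1 alone and 675 with CAST alone. For parental d6 and i10 against the others 80 became 348, 44 and 37, and 184 with the DESeq2 test. In the allelic ratio i12 clone 10 (1 gene) had 5 with DESeq2 and 3 with only its libraries, i10 clone 18 (0 genes; 348 at an unadjusted p under 0.05) had 1 and i7 clone 7 (1 gene) had 0 with only theirs.

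Replicates with the same number correlated in their deviations between clone and parental line, with r of 0.435 to 0.677 for total counts and 0.126 to 0.365 for the ratio, but the labels name no shared batch and each comparison has 2 pairs. With the replicate block, total counts gave 1019 genes for i7 clone 12, 14 for d6 clone 16, 20 for d3 clone 21, 6868 among the parental lines and 725 for parental d6 and i10 against the others. In the ratio the block gave 31 in d6 clone 16, 680 among the parental lines and 37 in the last contrast. The Smarcc1 difference in that contrast was -2.44. The block had a separate replicate term for each family. Its comparisons between families were thus made at the level of replicate 1, not at the mean of the replicates, unlike those of the main fit.

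With each library left out in turn, total counts gave 0 to 2 genes for i7 clone 12, 0 to 1 for d6 clone 16, 4 to 610 for d3 clone 21 and 1 to 796 for d3 clone 12. The ratio gave 5 to 155 in d3 clone 12, 1 to 2 in i12 clone 10 and 153 to 169 in i7 clone 12. Leaving out d3 parental replicate 1 gave 796, 610 and 155. In d3 clone 12 total counts gave 4 without its replicate 1 and 1 without its replicate 2 or d3 parental replicate 2, and the ratio gave 70 without its replicate 1. Total counts gave 4 in d3 clone 21 without its replicate 2. In d6 clone 16 they gave 0 without its replicate 1 and 1 without any of its other libraries. In i7 clone 12 they gave 1 without either of its replicates, 2 without i7 parental replicate 1 and 0 without i7 parental replicate 2. The ratio gave 157 in i7 clone 12 without its replicate 2, 167 and 153 without i7 parental replicates 1 and 2, and 2 in i12 clone 10 without i12 parental replicate 2. The cause was not tested. No member was called in any of 496 tests with a library left out. The depth of i10 and i12 limits what could be called there.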
